A study of Mus musculus with 6 samples.

Results

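The unfolded protein response (UPR) and the integrated stress response were followed through 10 genes: Ern1, Xbp1, Edem1, Atf6, Herpud1, Eif2ak3, Atf4, Ddit3, Ppp1r15a and Trib3. They were chosen by symbol among the 32285 genes of the count tables. No measured value set the choice, but earlier results of these data were known. They stood under 11 identifiers, because Ddit3 had 2, of which the second held 0 UMIs (unique molecular identifiers, the counted RNA molecules). RNA of single cells was counted in bone marrow of 9 BALB/c mice of 10 weeks of age, enriched for c-Kit+ cells with magnetic beads. There were 3 groups of 3 mice: non-tumor-bearing (NTB) mice, 4T1-bearing mice given vehicle (DPBS, Veh) and 4T1-bearing mice given brequinar (BRQ) at 10 mg/kg a day into the peritoneum for 2 weeks. NTB mice were given neither agent, so no group separates vehicle from tumor. The 4T1 line is a mammary carcinoma line of BALB/c origin, and BRQ inhibits DHODH, an enzyme of pyrimidine synthesis. Each of 3 pools held 1 mouse of each group, told apart by hashtag antibodies.

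Proteins that fold poorly in the endoplasmic reticulum (ER) are sensed by 3 membrane proteins, and each starts an arm of the UPR. IRE1, encoded by Ern1, splices Xbp1 mRNA so that it encodes an active transcription factor for secretion and degradation genes such as Edem1. ATF6 is cut in the Golgi to release a factor that raises chaperone genes, and Herpud1, which serves ER-associated degradation, carries the elements this factor uses. PERK, encoded by Eif2ak3, phosphorylates the initiation factor eIF2α and favors translation of ATF4, which raises amino acid genes, Trib3 and Ddit3 (CHOP), while Ppp1r15a (GADD34) reverses the phosphorylation. Granulocyte-monocyte progenitors (GMPs), which make granule proteins in bulk, are secretory cells of the marrow. The 3' UMI counts used here do not show Xbp1 splicing, ATF6 cleavage, phosphorylation or protein.

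The members lie on 10 loci of GRCm38 (GENCODE annotation), those called in GMPs at chr11:106394650-106487852 on the minus strand (Ern1) and, on the plus strand, at chr11:5520659-5525893 (Xbp1), chr8:94386438-94395377 (Herpud1) and chr15:80255184-80257541 (Atf4). The promoters were read for the elements through which these arms are known to act. RefSeq windows of 300 bases (GRCm38.p6, the reference strain and not BALB/c), from 250 before the start to 50 after it, were held for 9 of the 10 genes and not for Atf6. Both strands were searched for 4 motifs: the ER stress element (CCAAT, 9 bases of any kind, CCACG), the ER stress element II (ATTGG, 1 base, CCACG), the UPR element core (TGACGTGG) and the C/EBP-ATF core (TGATGNAA). Herpud1 held the ER stress element II at -52 to -42 from its start and the C/EBP-ATF core at -112 to -105 on the other strand. It is shown because it was the gene of the ATF6 arm that moved most among the 10, beside Hspa5, the chaperone BiP, whose ER stress element is the textbook example and which was named for that reason. In the lines below, capitals mark the matches, both stretches are on the plus strand, and the Herpud1 core is read on the minus strand.
Herpud1, chr8:94386292-94386412: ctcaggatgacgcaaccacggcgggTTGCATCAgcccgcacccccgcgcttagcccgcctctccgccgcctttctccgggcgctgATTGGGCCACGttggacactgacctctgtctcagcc
Hspa5, chr2:34772000-34772068: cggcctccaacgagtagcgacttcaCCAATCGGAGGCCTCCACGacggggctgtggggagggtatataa
Of all 32851 promoter windows, 0.119% held the ER stress element, 0.0365% the ER stress element II, 0.676% the UPR element core and 3.97% the C/EBP-ATF core. Among the 9 genes, Herpud1 alone held the ER stress element II, and Herpud1 and Trib3 held the C/EBP-ATF core, in Trib3 at 15 to 22 after the start. A match is a stretch of letters and not a measured site.

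After filtering, 15966 cells were given to a mouse, 382 to 2780 per mouse, and 33.1% to 52.19% of barcodes per pool carried no clear hashtag. GMPs were the cells with a scaled Ms4a3 value over 3, a limit taken from the study, whose scale was assumed here to be ln(1 + UMIs per 10000). Of the 3916 GMPs, 88.94% lay in the GMP-like clusters 0, 2 and 4. Since the limit cuts a range, 3733 cells lay within 0.25 of it. A mouse had 88 to 1017 GMPs, which summed to 998154 to 2068775 UMIs in NTB mice and 1661618 to 16074010 in the others. Median UMIs per GMP were 10828.5 to 11581 in NTB, 14737 to 17966 in Veh and 12168.5 to 15795 in BRQ mice, so depth per cell moved with the groups. In the GMPs all 7 GMP markers were detected, and the 5 plasma cell markers summed to 2.004 to 5.801 counts per 1000000 (CPM) in the 9 mice. The summed neutrophil markers were 47540 to 51000 CPM in NTB-GMPs, 34290 to 38050 in Veh-GMPs and 27170 to 38520 in BRQ-GMPs. Of 13 marker lists of other cell types, 6 did not overlap between Veh-GMPs and NTB-GMPs, all lower in Veh, and 5 did not between BRQ-GMPs and Veh-GMPs, 4 of them higher in BRQ. The 10 monocyte markers summed to 175.6 to 254.7 CPM in NTB-GMPs, 92.94 to 123.4 in Veh-GMPs and 244.9 to 287.6 in BRQ-GMPs, and the 11 basophil, mast cell and eosinophil markers to 123.2 to 178, 85.46 to 113.1 and 184.8 to 201.5. The 8 HSC/MPP markers summed to 48.82 to 51.65, 51.08 to 51.28 and 77.23 to 96.26 CPM. The B cell markers, 7 of 8 detected and Ms4a1 at 0, summed to 54.08 to 69.13, 28.29 to 36.01 and 40.9 to 48.73 CPM. For these 4 lists BRQ-GMPs lay above Veh-GMPs, and for the monocyte list they overlapped with NTB-GMPs. The 11 erythroid markers summed to 82.15 to 134.4, 129.4 to 145.2 and 86.95 to 122.3 CPM, so there BRQ-GMPs lay below Veh-GMPs and overlapped with NTB-GMPs. The 7 macrophage markers summed to 272.2 to 310.6, 161 to 174.5 and 65.34 to 195.6 CPM, and the T/NK cell markers, 5 of 9 detected with Cd3e, Cd8a, Gzma and Trbc2 at 0, to 1103 to 1343, 1018 to 1085 and 963.5 to 1118. The part of depth and of these markers in the results below was not tested.

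In GMPs, the transcript of the IRE1 target Xbp1 was higher in Veh mice than in NTB mice and lower again in BRQ mice, while the transcript of its sensor, Ern1, went the other way under BRQ. Levels are CPM of the UMIs summed over the GMPs of a mouse, with TMM-scaled library sizes, in the order of pools 1, 2 and 3. For Xbp1 they were 151.5, 148.1 and 185.3 CPM in NTB-GMPs, 222.2, 216.9 and 237.8 in Veh-GMPs, and 146.5, 153.4 and 183.8 in BRQ-GMPs. Each Veh mouse was above each mouse of the other groups, and NTB and BRQ mice overlapped. Xbp1 rose 1.39-fold in Veh-GMPs over NTB-GMPs (log2 fold change 0.47, SE 0.11, adjusted p = 0.00545, edgeR quasi-likelihood test, n = 3 mice a group) and fell by 0.49 on the log2 scale in BRQ-GMPs against Veh-GMPs (SE 0.094, adjusted p = 0.00115, edgeR). Without the NTB mouse of pool 2 the first change was 0.41 with an adjusted p of 0.0526.

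For Ern1 the GMP levels were 21.8, 25.72 and 24.07 CPM in NTB mice, 21.91, 18.18 and 20 in Veh mice and 32.6, 29.46 and 30.9 in BRQ mice. Every BRQ mouse was above every mouse of the other groups, and NTB and Veh mice overlapped. Ern1 rose 1.49-fold in BRQ-GMPs over Veh-GMPs (log2 fold change 0.58, SE 0.11, adjusted p = 0.000789, edgeR). The monocyte and HSC/MPP markers given above were higher in the same BRQ-GMPs, and Ern1 averaged 42.17 CPM in monocyte-like and 44.61 in HSC/MPP-like cells, above its level in GMPs. The part of those cells in this result was not tested. Between Veh and NTB the difference was -0.22 (SE 0.15, adjusted p = 0.462). Edem1, a lectin-like protein that hands misfolded glycoproteins over for degradation, lay between 74.13 and 96.49 CPM in all 9 mice. Its log2 fold changes were 0.19 for Veh against NTB and -0.18 for BRQ against Veh, neither past the threshold (adjusted p = 0.341 and 0.181, edgeR).

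**Figure D1:**
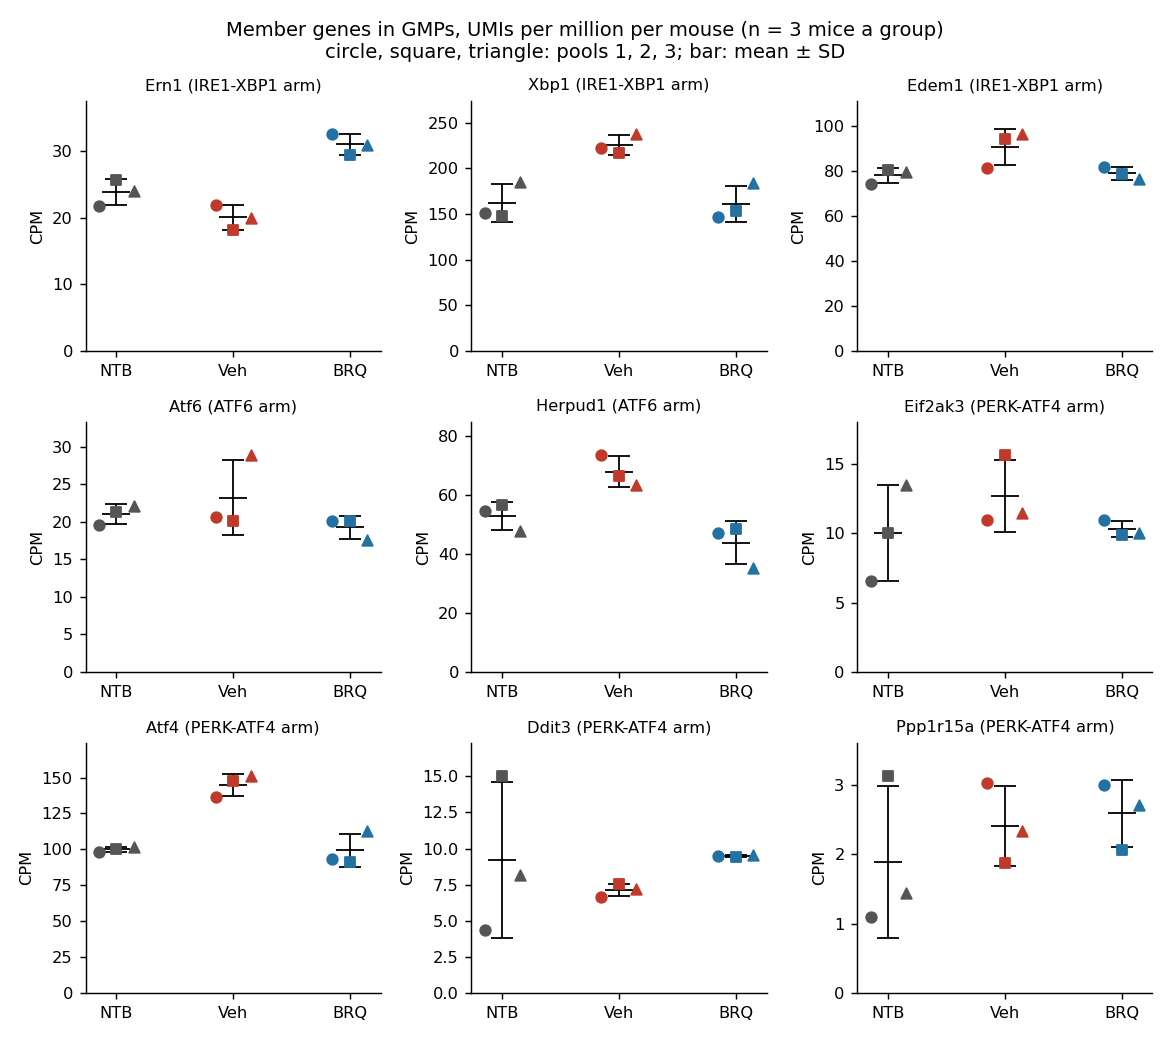
CPM of 9 member genes in GMPs (y axes, from 0) for each mouse by group (x axes), with bars for the mean and SD of 3 mice; circles, squares and triangles are pools 1, 2 and 3. Xbp1 and Atf4 were highest in the 3 Veh mice, Ern1 was highest in the 3 BRQ mice, and Ddit3 spread from 4.36 to 15.06 CPM within the NTB group.

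In the ATF6 arm, the sensor gene itself did not pass the test in GMPs, while Herpud1 fell under BRQ. Atf6 measured 17.52 to 28.93 CPM over the 9 mice, the highest value being that of the Veh mouse of pool 3. Its log2 fold change was 0.13 (SE 0.18) for Veh against NTB and -0.28 (SE 0.13) for BRQ against Veh, with adjusted p of 0.729 and 0.171 (edgeR). Herpud1 was at 54.51, 56.46 and 47.66 CPM in NTB-GMPs, 73.71, 66.44 and 63.49 in Veh-GMPs and 47.26, 48.63 and 35.36 in BRQ-GMPs. Veh mice were above all others, and the NTB and BRQ ranges overlapped. It fell by 0.66 on the log2 scale in BRQ-GMPs against Veh-GMPs (SE 0.11, adjusted p = 0.000304, edgeR), to a fold of 0.635. The difference of 0.39 between Veh and NTB (SE 0.14) missed the threshold (adjusted p = 0.0715) and passed it with the pool as a replicate block (0.38, adjusted p = 0.0185, edgeR).

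In the PERK arm, Atf4 mRNA followed the pattern of Xbp1, and Ddit3 did not. Atf4 measured 98.11, 100.4 and 101.6 CPM in NTB-GMPs, 136.6, 147.3 and 151.4 in Veh-GMPs and 93.33, 91.41 and 112.8 in BRQ-GMPs. The Veh mice did not overlap with either group. Atf4 rose 1.44-fold in Veh-GMPs over NTB-GMPs (log2 fold change 0.53, SE 0.10, adjusted p = 0.00195, edgeR) and fell by 0.54 in BRQ-GMPs against Veh-GMPs (SE 0.088, adjusted p = 0.000243, edgeR).

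Ddit3, the pro-apoptotic factor downstream of ATF4, was at 4.36, 15.06 and 8.184 CPM in NTB-GMPs, 6.652, 7.521 and 7.184 in Veh-GMPs and 9.47, 9.422 and 9.556 in BRQ-GMPs. The NTB values rested on 4 to 24 UMIs a mouse and spanned those of both other groups. The log2 fold changes of Ddit3 were -0.50 (SE 0.28, adjusted p = 0.283) for Veh against NTB and 0.46 (SE 0.19, adjusted p = 0.131) for BRQ against Veh by edgeR, and each BRQ mouse was above each Veh mouse. Eif2ak3 lay between 6.541 and 15.67 CPM with log2 fold changes of 0.12 and -0.19 (SE 0.24 and 0.16), neither past the threshold. Ppp1r15a, at 1.09 to 3.137 CPM on 1 to 45 UMIs a mouse, measured 0.46 and -0.04 (SE 0.51 and 0.29), also short of it. Trib3, a pseudokinase induced by ATF4 and CHOP, had 2 UMIs over all GMPs and was not tested.

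**Figure D2:**
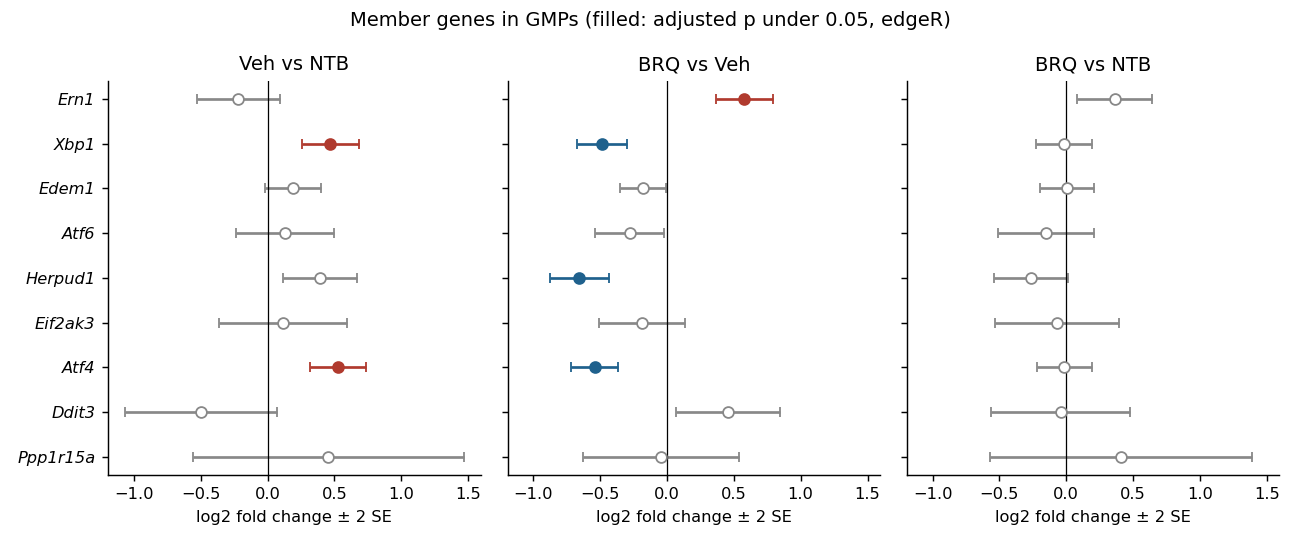
Log2 fold changes of 9 member genes (y axis) in GMPs for the 3 comparisons (x axes, bars of 2 SE either way). Filled points passed an adjusted p of 0.05 (edgeR): Xbp1 and Atf4 higher in Veh over NTB; Ern1 higher and Xbp1, Herpud1 and Atf4 lower in BRQ against Veh; none in BRQ against NTB.

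Of the 9 members tested in GMPs, 2 were called for Veh against NTB, both higher, where 11.3% of the 10331 tested genes were called and 6.63% were called higher. For BRQ against Veh 4 were called, 3 of them lower, beside 13.4% of all genes and 7.37% called lower. Groups did not overlap for 4 and 6 members, against 28.4% and 30.7% of all genes. Between BRQ and NTB 0 members were called by edgeR and 0 by DESeq2, with 1 (Ern1, log2 fold change 0.36, SE 0.14, adjusted p = 0.135) under an unadjusted p of 0.05. In that comparison 6.01% of all genes were called, and 1 member (Ern1) did not overlap, against 25.9%. The 2 SE interval of the BRQ against NTB difference was -0.23 to 0.19 for Xbp1 and -0.22 to 0.19 for Atf4. The first 2 comparisons share the 3 Veh mice, so their opposite signs are not independent.

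The members called for BRQ against Veh were the same within cluster 0 and within cluster 4, and in cluster 2 those called were Xbp1 and Herpud1. Cluster 4 held 17.51% to 25.19% of the GMPs in NTB, 33.56% to 43.07% in Veh and 7.2% to 25.61% in BRQ mice. In the same order cluster 2 held 2.27% to 5.65%, 7.37% to 9.69% and 19.85% to 47.01%, and cluster 0 held 58.19% to 60%, 37.89% to 47.06% and 31.55% to 44.66%. Sdf2l1 and other secretory genes are among those that set cluster 4 apart, so these shares are not independent of the genes studied. In sums over GMPs, a change in which cells are present and a change in RNA per cell cannot be told apart. The part of the shares in the list results below was not tested. Among GMPs of cluster 0 alone the log2 fold changes of Ern1, Xbp1, Herpud1 and Atf4 were 0.66, -0.41, -0.46 and -0.64 (adjusted p = 0.0186, 0.0103, 0.0273 and 0.000347, edgeR), where 8.88% of 8995 genes were called. In cluster 4 alone they were 0.72, -0.39, -0.78 and -0.52 (adjusted p = 0.00612, 0.0409, 8.57e-05 and 0.00453, edgeR), beside 7.25% of 6500 genes. In cluster 2 alone, where 3 BRQ and 2 Veh mice had 20 or more such cells and no NTB mouse did, they were 0.31, -0.50, -0.78 and -0.39 (adjusted p = 0.44, 0.0497, 0.0127 and 0.0892, edgeR), and 3.06% of 9404 genes were called. For Veh against NTB, Atf4 kept its call in cluster 0 (0.54, adjusted p = 0.0198) and not in cluster 4 (0.28, adjusted p = 0.409), while Xbp1 measured 0.39 and 0.51 (adjusted p = 0.0519 and 0.0688, edgeR), and 4.78% and 3.58% of all genes were called. The methods word the limits on a cell as transcripts, and they were read here as 500 and 7500 detected genes. Read as UMIs, where the upper limit lies near the median of a barcode (7445 to 7996.5 UMIs by pool), they left 8 to 88 GMPs a mouse, and 0 of the 3 members that could still be tested (Xbp1, Edem1 and Atf4) were called by edgeR in either comparison. With so few cells, that 0 is not read as a result about the members.

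The other genes of each arm were followed in lists of known targets, written with earlier results of these data known. The counts below describe these lists and are no test of an arm. Whether another arm also acts on a listed gene was not tested. Of 13 chaperone and degradation genes of the ATF6 arm, 11 were higher in Veh-GMPs than in NTB-GMPs, beside 6.63% of all genes, and 13 were lower in BRQ-GMPs than in Veh-GMPs, beside 7.37%. Their median log2 fold changes were 0.78 and -1.12, beside -0.01 and 0.001 for all genes tested. Their summed level was 4025 to 4363 CPM in NTB mice, 6994 to 7078 in Veh mice and 3102 to 3538 in BRQ mice, with no overlap between any of the groups. Against NTB, 6 of the 13 were lower in BRQ-GMPs, beside 3.46% of all genes, and the median was -0.38.

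Creld2, an ER chaperone-like protein, averaged 54.81 CPM (SD 19.51) in NTB-GMPs, 124.3 (SD 1.14) in Veh-GMPs and 34.55 (SD 3.69) in BRQ-GMPs. It had the largest called rise of the ATF6 list in Veh over NTB (log2 fold change 1.11) and changed by -1.85 in BRQ against Veh (adjusted p = 2.6e-05 and 3.99e-10, edgeR). Sdf2l1, a partner of the ER chaperone cycle, averaged 234.0, 443.3 and 155.6 CPM in the NTB, Veh and BRQ groups and had the next largest rise, at 0.93 (adjusted p = 9.64e-06, edgeR). The smallest called rises were those of Pdia6, a disulfide isomerase (0.64), and Syvn1, the ubiquitin ligase of ER-associated degradation (0.65). Under BRQ the smallest called falls were those of Sel1l, the partner of Syvn1 (-0.34), and Syvn1 itself (-0.63). Derl3, a degradation channel protein, was also called lower, with means of 4.31 CPM in Veh-GMPs and 0.269 in BRQ-GMPs. BRQ mice lay at 0.2166 to 0.3185 CPM, and no fold is given for it on counts this low. BRQ-GMPs lay below NTB-GMPs for the luminal chaperones Calr (log2 fold change -0.32) and Hsp90b1 (-0.38), for Sdf2l1 (-0.58) and for Creld2 (-0.75), the last with overlapping groups.

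Of 17 genes of the IRE1-XBP1 arm, most serve translocation into the ER and export from it, while Edem2, Edem3, Dnajb9 and Dnajc3 serve degradation or as co-chaperones. Of the 17, 11 were higher in Veh-GMPs than in NTB-GMPs and 15 were lower in BRQ-GMPs against Veh-GMPs. The medians were 0.39 and -0.48, beside 6.63% of all genes called higher and 7.37% called lower. For BRQ against NTB 0 of the 17 were called by edgeR, with 4 under an unadjusted p of 0.05 and a median of -0.11, beside 6.01% of all genes called. The summed level was 3420 to 3761 CPM in NTB, 4652 to 4842 in Veh and 3090 to 3500 in BRQ mice, so Veh mice lay above both other groups, which overlapped. Dnajc3, an ER co-chaperone that also inhibits PERK, averaged 142.5 CPM (SD 17.8), 250.8 (SD 5.74) and 118.1 (SD 11.9) in the NTB, Veh and BRQ groups. It had the largest change of this list in both comparisons (log2 fold changes 0.79 and -1.09, adjusted p = 1.97e-05 and 1.54e-08, edgeR). The COPII coat gene Sec24d rose by 0.67 in Veh-GMPs, and Srpr, the receptor of the signal recognition particle, changed by -0.85 under BRQ. Small called changes were those of Spcs3 (0.36) and Sec61b (0.32) in Veh over NTB and of Sec63 (-0.31) and Spcs1 (-0.33) in BRQ against Veh.

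The PERK-ATF4 list holds genes of amino acid supply beside transcription factors and other targets. Of its 21 genes 14 were expressed enough to be tested, of which 6 were higher in Veh-GMPs than in NTB-GMPs (median 0.46), beside 6.63% of all genes, and 4 were lower in BRQ-GMPs than in Veh-GMPs (median -0.19), beside 7.37%. Against NTB the median in BRQ-GMPs was 0.39 with 12 of 14 positive, but 1 gene passed the test, beside 6.01% of all genes. The summed level was 328.3 to 359.7 CPM in NTB, 452.4 to 490.9 in Veh and 392.7 to 455.1 in BRQ mice, so BRQ mice lay above all NTB mice and overlapped with Veh mice. The 2 largest rises in Veh-GMPs were those of the amino acid transporter Slc7a5 (1.00, from 9.443 to 17.56 CPM on average) and the mitochondrial folate enzyme Mthfd2 (0.76), and the smallest called were the asparagine synthetase Asns (0.58) and the serine synthesis gene Phgdh (0.48, overlapping groups). In BRQ-GMPs against Veh-GMPs the transcription factor Atf5 changed by -0.89, Slc3a2, the partner chain of Slc7a5, by -0.55, Asns by -0.50 and Mthfd2 by -0.38. Psat1, of serine synthesis, was the gene that remained higher in BRQ-GMPs than in NTB-GMPs (0.57, adjusted p = 0.0204, edgeR), at 53.42 against 36.75 CPM.

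Of 5 genes linked to CHOP and cell death, 4 were tested, of which 0 were called by edgeR for Veh against NTB (3 under an unadjusted p of 0.05) and 1, the ER oxidase Ero1l, was lower under BRQ (-0.27), beside 11.3% and 13.4% of all genes called. Of 15 relatives and processing factors of the sensors 13 were tested, and 1 was called in each comparison, beside 11.3% (Veh against NTB), 13.4% (BRQ against Veh) and 6.01% (BRQ against NTB) of all genes. Eif2s1, the α subunit of eIF2 that PERK phosphorylates, was higher than in NTB-GMPs in Veh-GMPs (0.61) and in BRQ-GMPs (0.45), and Ppp1r15b, the constitutive partner of the eIF2α phosphatase, was lower in BRQ-GMPs than in Veh-GMPs (-0.32). Of 11 tested immediate early and heat shock genes known to respond to cell dissociation, 3 were called higher in Veh-GMPs, Hspa1a, Hspa1b and Junb (0.75), and 3 lower under BRQ, Hspa1a, Hspa1b and Jund (-1.10), beside 6.63% and 7.37% of all genes. Hspa1a lay at 0 to 1.09 CPM in NTB-GMPs (0 to 1 UMIs a mouse), 1.88 to 5.107 in Veh-GMPs and 1.035 to 1.949 in BRQ-GMPs, and the last 2 groups overlapped. Hspa1b lay at 0 to 3.137 (0 to 5 UMIs), 3.134 to 10.95 and 3.345 to 5.848 CPM, with overlap in both comparisons, and no fold is given for either gene on counts this low. The dissociation-linked list summed to 121.8 to 143 CPM in NTB, 125.6 to 170.7 in Veh and 104.4 to 135.7 in BRQ mice, which overlapped, and its part in the results was not tested.

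**Figure D3:**
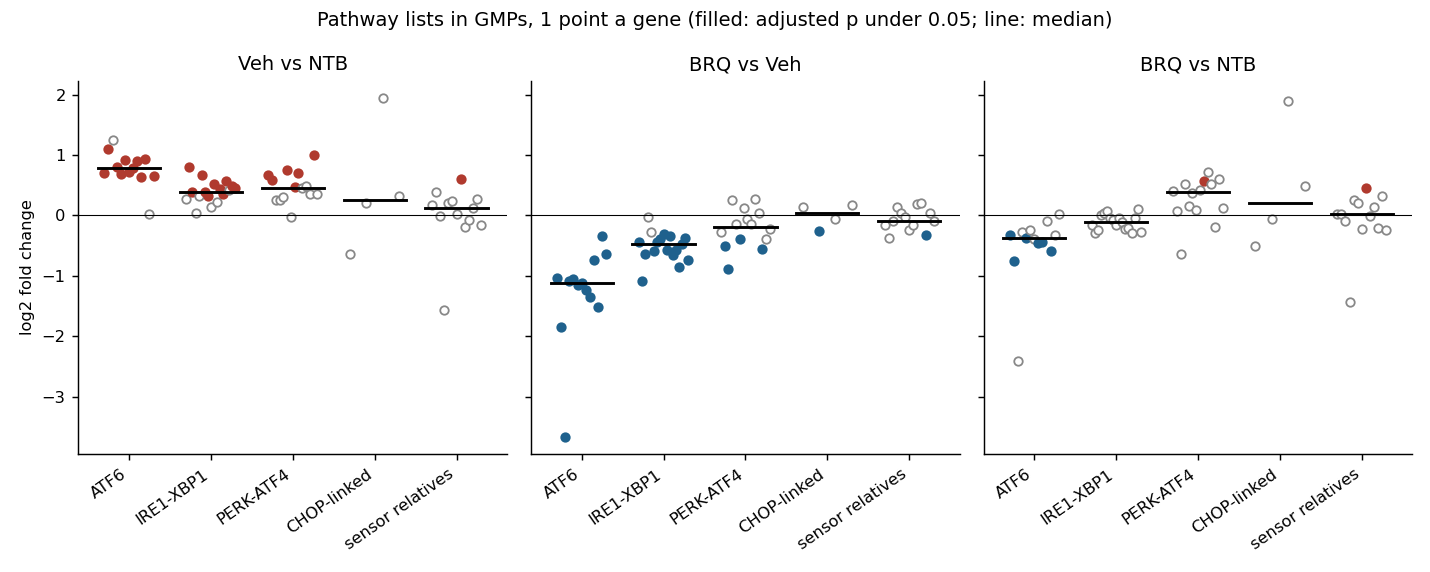
Log2 fold change (y axis) of each tested gene of 5 pathway lists (x axis) in GMPs for the 3 comparisons; filled points passed an adjusted p of 0.05 (edgeR) and lines are list medians. Of the 5 lists, the ATF6 list has the largest shift of the median in Veh against NTB (0.78) and in BRQ against Veh (-1.12). The PERK-ATF4 list has its median at 0.39 in BRQ against NTB. Which arm acted on a listed gene was not tested.

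The promoters of these lists were searched for the same 4 motifs; the lists were drawn from known targets, so matches were to be found. The ER stress element stood in 7 of 11 ATF6 promoters searched (Calr, Creld2, Derl3, Hsp90b1, Hspa5, Pdia6 and Syvn1) and in 1 of 15 of the IRE1-XBP1 list (Dnajc3). The ER stress element II stood in Dnajb11 of the ATF6 list and the UPR element core in Sec24d of the IRE1-XBP1 list. The C/EBP-ATF core stood in 6 of 18 of the PERK-ATF4 list (Asns, Atf3, Chac1, Nupr1, Pck2 and Slc7a11) and in 0 of the other promoters of both lists.

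Over the 9 mice, the tested genes whose log2 levels in GMPs were most like that of Xbp1 were Slc1a5 (Pearson r 0.978), Hnrnph2 (0.965) and Psmc3 (0.958). For Atf4 they were Dgat2 (0.982), Srp72 (0.973) and Atp2a2 (0.969), and for Herpud1 Reep5 (0.983), Selenok (0.982) and Rps2 (0.978). For Ddit3 they were Osbp (0.968), Ccny (0.967) and Zfp719 (0.955). These are the highest of 10331 genes over 9 mice in 3 groups that share pools and depth, so they are a description without a test.

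In neutrophil-like cells Ddit3, Ern1 and Ppp1r15a were called higher in Veh than in NTB mice. These were 3 of 9 members tested, beside 15.8% of 7809 genes called higher and 28.0% called in either direction. This class, clusters 1, 3 and 8 without GMPs, held 3444 cells. Ddit3 measured 9.701, 6.443 and 8.14 CPM in NTB mice, 24.63, 45.51 and 41.43 in Veh mice and 16.5, 18.18 and 35.65 in BRQ mice. NTB mice were below all others, and Veh and BRQ mice overlapped. Ddit3 was higher in Veh than in NTB mice (log2 fold change 2.16, SE 0.36, adjusted p = 0.000793, edgeR) and in BRQ than in NTB mice (1.57, SE 0.35, adjusted p = 0.00865, edgeR). The second call was lost when the NTB mouse of pool 2 was left out (1.45, adjusted p = 0.0537), and likewise that of pool 3 (1.66, adjusted p = 0.0659).

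Ern1 was at 3.88, 9.665 and 8.898 CPM in the NTB, 21.01, 16.25 and 16.57 in the Veh and 7.732, 9.452 and 16.45 in the BRQ mice, on 2 to 47 UMIs each. It was higher in Veh than in NTB mice (1.10, SE 0.34, adjusted p = 0.0284, edgeR), without overlap, but the call was lost when any 1 of the 6 NTB and Veh mice was left out (0.92 to 1.20, adjusted p up to 0.116). Ppp1r15a, the eIF2α phosphatase subunit, was also called (2.97, SE 0.98, adjusted p = 0.0364, edgeR), on 1 to 10 UMIs a mouse and with overlapping groups, and lost its call without any 1 of 4 mice (down to 2.18, adjusted p = 0.325, without the Veh mouse of pool 3). In BRQ against NTB mice Ppp1r15a measured 2.80 (adjusted p = 0.0508), which passed with the pool as a replicate block (3.20, adjusted p = 0.0125, edgeR). Xbp1 and Atf4, called higher in Veh-GMPs, measured -0.16 and -0.11 (SE 0.19 and 0.18) in Veh against NTB mice. Herpud1, Atf6 and Eif2ak3 measured 0.44, 0.63 and 0.77 (adjusted p = 0.199, 0.203 and 0.0739), without overlap of the groups, as for 5 of 9 members and 46.3% of all genes, and Edem1 -0.25 (adjusted p = 0.308, edgeR). Trib3, with 11 UMIs in all, was not tested.

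Of the 9 members tested 3 were called for Veh against NTB, all higher, beside 28.0% of 7809 genes called and 15.8% called higher. Between BRQ and Veh mice 0 members were called by edgeR and 0 by DESeq2, with 1 (Ern1, -0.75) under an unadjusted p of 0.05, and 0.0384% of all genes were called by edgeR with all mice in the fit. Without the BRQ mouse of pool 3, Ern1 (-1.13, adjusted p = 0.0473) and Ddit3 (-0.99, adjusted p = 0.0329) were called lower. In BRQ against NTB mice 1 member was called, higher, beside 14.2% of all genes called and 10.9% called higher.

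The make-up of the neutrophil-like class differed with the groups. Cluster 1, led by Retnlg, Il1b and Cxcr2, genes of late neutrophils, held 6.4% to 10.47% of the class in NTB mice, 71.88% to 90.29% in Veh mice and 51.63% to 80.81% in BRQ mice. Cluster 3, led by the granule genes Ltf, Camp and Ngp, held 61.93% to 67.75% in NTB and 3.55% to 22.8% in the tumor-bearing mice. Median UMIs per cell of the class were 5500 to 6305.5 in NTB, 1573 to 1885 in Veh and 2594 to 3333 in BRQ mice. Of the 13 marker lists of other cell types, 6 did not overlap between Veh and NTB mice in this class. Basophil, mast cell and eosinophil markers, 10 of 11 detected with Cd200r3 at 0, summed to 112.7 to 142.4 CPM in NTB, 287.2 to 496 in Veh and 245.3 to 440.6 in BRQ mice, and the 7 GMP markers to 1317 to 1930, 2118 to 2708 and 2239 to 2537. Monocyte markers, at 305.2 to 356.6, 221.3 to 290.3 and 401.9 to 502.3 CPM, and macrophage markers, at 54.28 to 81.51, 6.915 to 48.06 and 19.81 to 32.64, were lower in Veh than in NTB mice. Dendritic cell markers (5.201 to 8.671 CPM in NTB and 11.74 to 27.66 in Veh mice; Cd209a, Siglech and Xcr1 at 0) and lymphoid progenitor markers (2.485 to 3.468 and 6.214 to 10.37) were higher. The neutrophil markers themselves summed to 392200 to 424700 CPM in NTB, 262400 to 341200 in Veh and 251800 to 338800 in BRQ mice. The part of these markers in the results of this class was not tested. In sums over a class, a change in which cells are present and a change in RNA per cell cannot be told apart.

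Within cluster 1, neither Ddit3 nor Ern1 passed the test. In cluster 1, Ddit3 was at 44.16 to 48.52 CPM in 2 NTB mice with 20 or more such cells, 58.51 to 68.78 in 3 Veh mice and 48.89 to 59.59 in 3 BRQ mice. In cluster 3 it lay between 0 and 11.7 CPM in the 6 mice with 20 or more such cells, and in cluster 8 between 4.251 and 13.09. In cluster 1 alone, Veh and NTB mice differed by 0.43 for Ddit3 (SE 0.49, adjusted p = 0.814) and by -0.43 for Ern1 (SE 0.66, adjusted p = 0.869, edgeR), where 1.8% of 4901 genes were called. The fit set 3 Veh mice against 2 NTB mice, whose values rest on 8 and 7 UMIs. In cluster 3, with 3 NTB, 2 BRQ and 1 Veh mice, Ddit3 and Ern1 were too low to be tested. Of the 5 members tested there the smallest adjusted p was 0.458 for BRQ against NTB (edgeR), where 5.85% of 6645 genes were called. Veh against NTB rests on 1 Veh mouse (60 such cells), so only its log2 fold changes are given. They were 0.447 for Xbp1, 0.117 for Edem1, 0.558 for Atf6, -0.431 for Herpud1 and -0.235 for Atf4. Ern1 was at 19.56 to 48.52 CPM in cluster 1 and 2.34 to 10.32 in cluster 3.

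The dissociation-linked genes moved with the same clusters: they summed to 2204 to 3769 CPM in cluster 1 and 163.8 to 245.7 in cluster 3 over the mice of all groups. Over the whole class 9 of the 10 tested were higher in Veh than in NTB mice (median 2.49), and their part in the Ddit3 result was not tested. Where 15.8% of all genes were called higher and 28.0% in either direction, of the ATF6 list 3 of 12 tested genes were higher and 1 lower, of the IRE1-XBP1 list 2 of 16 were higher, and of the PERK-ATF4 list 4 of 12 were higher and 1 lower. Of the CHOP-linked list 2 of 4 were higher and 1 lower, and of the 9 tested sensor relatives 0 were called by edgeR (1 under an unadjusted p of 0.05). Atf3 stands in both the PERK-ATF4 and the dissociation-linked list.

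**Figure D4:**
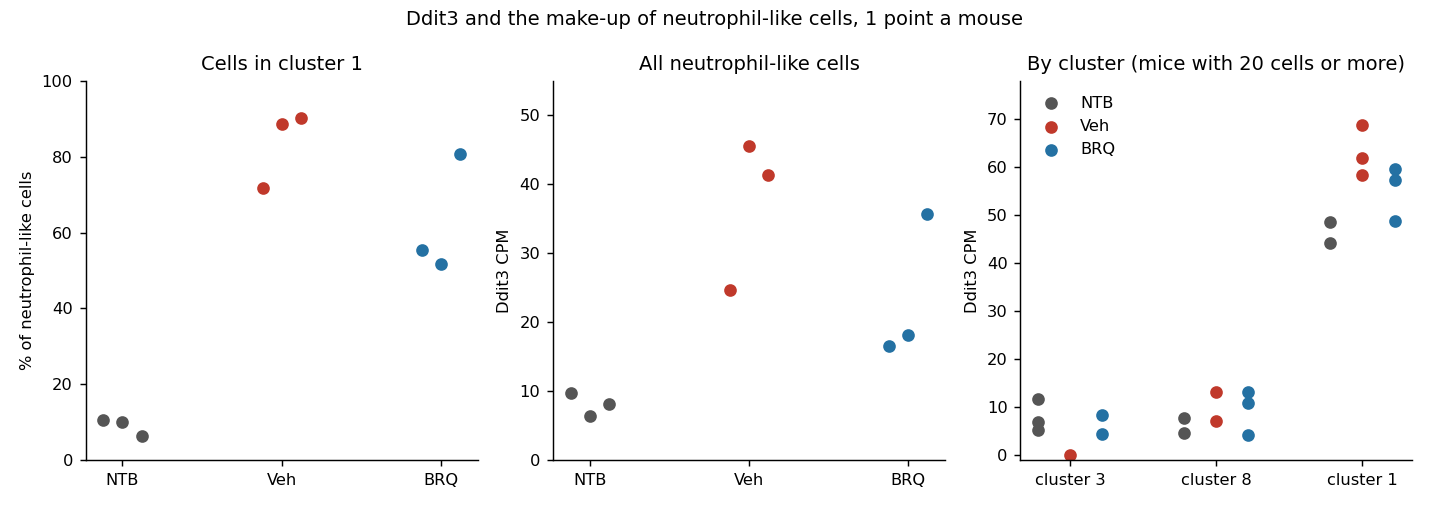
Share of neutrophil-like cells in cluster 1 (left), Ddit3 CPM of the whole class (middle) and Ddit3 CPM by cluster in mice with 20 or more cells (right), 1 point a mouse. Both the share (6.4% to 10.47% in NTB, 71.88% to 90.29% in Veh) and the class level were lowest in NTB mice, while within cluster 1 all groups lay between 44.16 and 68.78 CPM.

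The change from NTB to Veh was tested for a difference between GMPs and neutrophil-like cells, with the mouse as a block (18 sums, edgeR). Ddit3 differed by -2.66 on the log2 scale (SE 0.49, adjusted p = 0.000507) and Ern1 by -1.42 (SE 0.38, adjusted p = 0.00896), as the change in GMPs minus that in neutrophil-like cells. The Ern1 call was lost without the Veh mouse of pool 1 (-1.17, adjusted p = 0.0596). Atf4 differed by 0.59 (SE 0.21, adjusted p = 0.0496), a call lost when any 1 of 7 mice was left out (0.48 to 0.72, adjusted p = 0.0524 to 0.25), and Xbp1 by 0.56 (SE 0.21, adjusted p = 0.0612). Of 9525 genes 20.8% differed by this test. For BRQ against Veh 0 members differed by edgeR, with 5 under an unadjusted p of 0.05 (Ern1, Xbp1, Edem1, Atf4 and Ddit3), and 1.66% of genes did. That share is of the fit with all mice and not of the fits below that leave a mouse out. Ern1, higher under BRQ in GMPs, differed by 1.33 there (SE 0.35, adjusted p = 0.0534). Without the BRQ mouse of pool 3, 4 members were called: Ern1 (1.74, adjusted p = 0.00114), Ddit3 (1.38, adjusted p = 0.0102), Xbp1 (-0.77, adjusted p = 0.0125) and Atf4 (-0.64, adjusted p = 0.0315, edgeR). Without the Veh mouse of pool 1, Xbp1 (-0.83, adjusted p = 0.033) and Edem1 (-0.74, adjusted p = 0.041) were called.

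In 4 further classes with enough cells, members were called in GMP-like cells below the Ms4a3 limit and in monocyte-like cells. Cells of the GMP-like clusters below the Ms4a3 limit had Xbp1 at 133.9 to 160.2 CPM in NTB, 183 to 218.7 in Veh and 137.1 to 160.5 in BRQ mice, and Atf4 at 89.52 to 106.4, 156.6 to 159.7 and 104.3 to 133. Veh mice were above all others for both genes. Xbp1 and Atf4 were higher in Veh than in NTB mice (0.48 and 0.63, adjusted p = 0.00102 and 0.0001, edgeR), where 20.5% of genes were called. In BRQ against Veh mice Xbp1 (-0.43), Atf4 (-0.43), Herpud1 (-0.39) and Atf6 (-0.45) were lower (adjusted p = 0.00561, 0.00544, 0.038 and 0.0478, edgeR), beside 6.24% of genes. For the last 2 the groups overlapped, and the calls were lost without any 1 of 5 mice (Herpud1) or 6 mice (Atf6), and that of Xbp1 without the Veh mouse of pool 3 (-0.36, adjusted p = 0.06). Ern1 measured 0.19 there (adjusted p = 0.372). In these cells the HSC/MPP markers summed to 116.6 to 131.4 CPM in Veh and 187.4 to 206.5 in BRQ mice, the monocyte markers to 146 to 152.4 and 182.3 to 246.4, and the basophil, mast cell and eosinophil markers to 93.27 to 130.5 and 196 to 204.1. In NTB mice these 3 lists were at 87.28 to 133.2, 194.7 to 255.2 and 149.6 to 184.8 CPM. Neutrophil markers summed to 32450 to 37400 CPM in NTB, 20490 to 27050 in Veh and 15460 to 23120 in BRQ mice, macrophage markers to 175.5 to 265.3, 102.9 to 133.2 and 39.7 to 139.3, and T/NK cell markers, 4 of 9 detected, to 843.5 to 896.2, 666 to 722 and 629.4 to 718.2. In all, 8 of 13 lists did not overlap between Veh and NTB mice, 3 between BRQ and Veh mice and 6 between BRQ and NTB mice, and their part in the results of these cells was not tested. Eif2ak3 was lower in BRQ than in NTB mice (-0.51, adjusted p = 0.0496, edgeR), beside 16.3% of genes, and lost the call without any 1 of 8 mice (-0.56 to -0.46, adjusted p up to 0.164).

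In monocyte-like cells, Ern1 was at 33.41 to 39.55 CPM in Veh and 43.45 to 54.44 in BRQ mice and was higher in the latter (0.47, adjusted p = 0.024, edgeR). Herpud1 was at 56.04 to 66.26 and 42.63 to 52.34 CPM and was lower (-0.42, adjusted p = 0.0292, edgeR), and 4.94% of genes were called. In the same cells the HSC/MPP markers summed to 176 to 216.3 CPM in Veh and 255.6 to 264.1 in BRQ mice, the monocyte markers to 1897 to 2333 and 2484 to 2786, the T/NK cell markers, 3 of 9 detected, to 127.7 to 184.7 and 224.5 to 236.3, and the macrophage markers to 6.993 to 12.21 and 12.59 to 15.66. These lists were higher in each BRQ mouse than in each Veh mouse, and their part in these results was not tested. The Ern1 call was lost without any 1 of 3 mice (0.37 to 0.46, adjusted p up to 0.219) and the Herpud1 call without any 1 of 4 (-0.45 to -0.34, adjusted p up to 0.202). For Veh against NTB and BRQ against NTB 0 members were called by edgeR in these cells, with 2 (Herpud1 and Atf4) and 0 under an unadjusted p of 0.05, beside 2.95% and 2.82% of genes.

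In HSC/MPP-like cells, the stem and multipotent progenitors, 0 members were called by edgeR in the 3 comparisons, where 1.07% (Veh against NTB), 0.0199% (BRQ against Veh) and 0.977% (BRQ against NTB) of genes were. The Veh mouse of pool 2 had 10 such cells and was left out. Under an unadjusted p of 0.05 stood Ddit3 alone, lower than in NTB mice in Veh (-1.14, adjusted p = 0.113) and in BRQ mice (-0.92, adjusted p = 0.112), a gene named after its values were seen. Cluster 6, unnamed because neutrophil genes led it although it scored highest for GMP markers, also had 0 of 7 tested members called in each comparison by edgeR, with 1 (Xbp1), 0 and 2 (Xbp1 and Herpud1) under an unadjusted p of 0.05. Of all genes 4.35%, 0.519% and 5.87% were called there. DESeq2 was not run in these 4 classes.

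**Figure D5:**
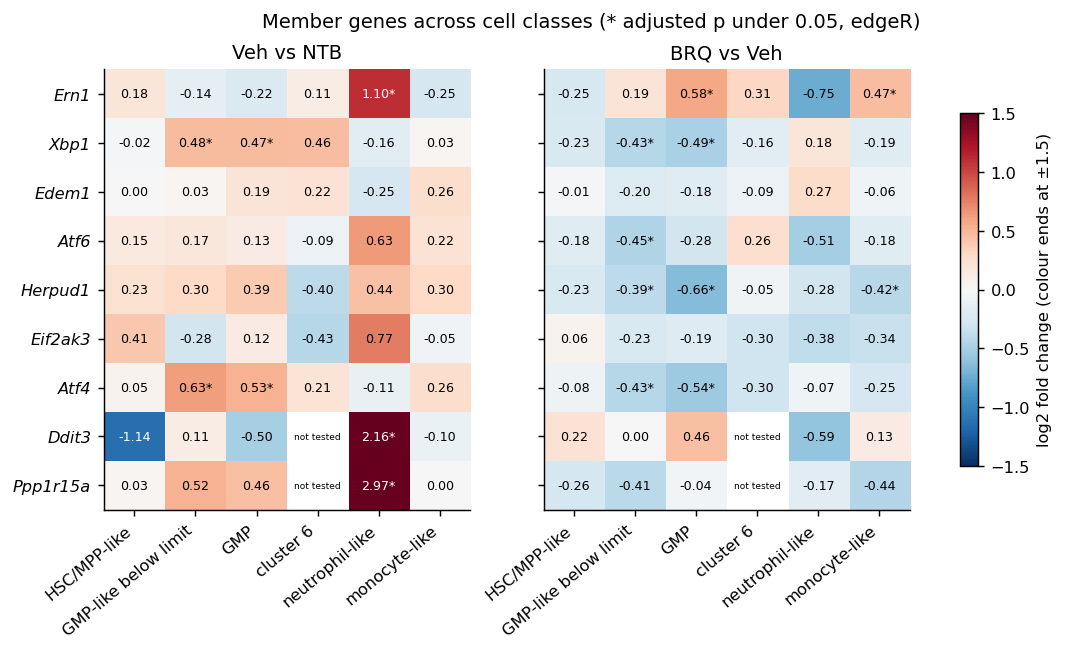
Log2 fold change of 9 member genes (rows) in 6 cell classes (columns) for Veh against NTB (left) and BRQ against Veh (right), as numbers and color; stars passed an adjusted p of 0.05 (edgeR). For Veh against NTB, Xbp1 and Atf4 carry stars in GMPs and in GMP-like cells below the limit, and Ern1, Ddit3 and Ppp1r15a in neutrophil-like cells. For BRQ against Veh, Xbp1, Atf4 and Herpud1 carry stars in GMPs and in GMP-like cells below the limit. There Ern1 carries them in GMPs and monocyte-like cells, Herpud1 also in monocyte-like cells, and Atf6 in GMP-like cells below the limit.

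The levels of the members across cell types, given here over all mice with 20 or more cells of a type and without a test, had separate orders. Xbp1 was at 1521 CPM in the plasma cell-like cells of 1 mouse (29 cells), against means of 221.7 (SD 110.4) in basophil/mast/eosinophil-like cells, 182.8 (SD 35.6) in GMPs, 164.1 (SD 29.9) in GMP-like cells below the limit, 107.2 (SD 8.31) in monocyte-like cells, 63.08 (SD 8.31) in neutrophil-like cells and 48.84 (SD 7.17) in HSC/MPP-like cells. After the plasma cell-like cells, the first 3 of these did not differ beyond their spread. Edem1 and Herpud1 were also highest in the plasma cell-like cells, at 534.5 and 218.1 CPM. Plasma cells secrete antibodies, for which XBP1 is required.

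Ern1 had a different order, with means of 44.61 CPM (SD 4.26) in HSC/MPP-like, 42.17 (SD 6.38) in monocyte-like, 36.67 (SD 5.06) in GMP-like cells below the limit, 24.96 (SD 5.06) in GMPs and 12.21 (SD 5.54) in neutrophil-like cells. HSC/MPP-like and monocyte-like cells differed by less than the larger SD, as did monocyte-like cells and GMP-like cells below the limit, while the other neighbours in this order differed by more. Over all groups this held, but not within each: in Veh mice Ern1 averaged 20.03 CPM (SD 1.87) in GMPs and 17.94 (SD 2.66) in neutrophil-like cells, and in BRQ mice 48.37 (SD 5.59) in monocyte-like and 42.7 (SD 2.02) in HSC/MPP-like cells. Atf4 varied less, from 77.02 (SD 8.16) in neutrophil-like cells to 189.3 (SD 41.6) in basophil/mast/eosinophil-like cells, with 140.9 (SD 15.9) in erythroid-like cells. Ddit3 was at 22.91 (SD 14.8) in neutrophil-like, 20.23 (SD 6.04) in erythroid-like, 16.76 (SD 6.16) in HSC/MPP-like and 8.6 (SD 2.94) in GMPs. This order, over all groups, did not hold within each. In NTB mice the mean was 23.74 CPM in HSC/MPP-like cells, 9.2 in GMPs and 8.1 in neutrophil-like cells, and in Veh mice it was 12.35, 7.12 and 37.19. Ppp1r15a averaged 14.31 CPM (SD 3.43) in erythroid-like and 13.11 (SD 4.19) in HSC/MPP-like cells and 2.3 (SD 0.735) in GMPs. Atf6 had means of 14.19 to 70.66 CPM and Eif2ak3 of 7.48 to 33.25 CPM over all types. Trib3 averaged at most 2.67 CPM in any type, with 15 UMIs in HSC/MPP-like cells.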

How the data were processed

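Single-cell 3' gene UMI counts and hashtag counts of 3 pools were used as deposited; per the labels the authors counted reads against mm10 with Cell Ranger 6.0.0 and used Seurat. The authors compared single cells, and here UMIs were summed per mouse. The study states limits of 500 and 7500 transcripts, which were read as detected genes, with UMIs as an alternative. Cells within them and with at most 15% mitochondrial UMIs were kept, and mice were assigned with HTODemux (quantile 0.99, Seurat 5.3.0). The pools shared 38 to 48 barcodes by pair, counted as separate cells. Clusters were made in scanpy 1.11.5 with leidenalg 0.10.2 and named from marker lists, and 4 of 20 stayed unnamed. Hashtag doublets were left out, and Scrublet was used in an alternative only.

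Sums of GMPs, of neutrophil-like cells (clusters 1, 3 and 8 without GMPs) and of 4 further classes, from mice with 20 or more cells, were tested with edgeR 4.0.16 (quasi-likelihood, TMM, filterByExpr, all 3 groups in the fit) in R 4.3.3, with Benjamini-Hochberg adjustment over all genes tested and a threshold of 0.05. DESeq2 1.42.0 was an alternative. The code was tested on simulated data. The interaction of class and group had the mouse as a block. Intervals are 2 SE. The total UMIs of a class in a mouse, from 998154 to 16074010 in GMPs, bear on the precision, as does the spread between mice.

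Mice of the same pool share a sample by the labels. Deviations of same-pool mice from their group means correlated in GMPs with a median r of 0.099 (lowest -0.008, 9 pairs) and in neutrophil-like cells with 0.049 (lowest -0.123), against -0.037 and -0.036 between pools (18 pairs). The main fit had no block.

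The scale of the Ms4a3 limit that defines GMPs, ln(1 + UMIs per 10000), was assumed. The members, lists and tests were chosen with earlier results of these data known. All 10 members were named in GMPs and neutrophil-like cells, in other classes those called, and of each list, per GMP comparison, 2 called genes from either end of the range of fold changes. Alternatives were other normalizations, filters, doublet and hashtag calls, GMP definitions, single clusters, the replicate block and leaving out each mouse. Figures were drawn with matplotlib 3.10.9.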

Additional observations from a re-analysis of the deposited data

Results flagged for a closer look

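Of the members, 3 changed differently from NTB to Veh mice in GMPs than in neutrophil-like cells, by edgeR's test of the difference itself over 18 sums with the mouse as a block, by which 20.8% of 9525 genes differed. The log2 fold change in GMPs minus that in neutrophil-like cells was -2.658 for Ddit3 (adjusted p = 0.000507, SE 0.49), where GMPs measured -0.50 and neutrophil-like cells 2.16. It was -1.42 for Ern1 (adjusted p = 0.00896, SE 0.38), between -0.22 and 1.10, and lost its call without the Veh mouse of pool 1 (-1.17, adjusted p = 0.0596). It was 0.586 for Atf4 (adjusted p = 0.0496, SE 0.21), between 0.53 and -0.11, and lost its call when any 1 of 7 mice was left out and with tag ratios (0.55, adjusted p = 0.214). The neutrophil-like class lay mostly in cluster 3 in NTB mice and in cluster 1 in Veh mice, and the part of that shift in these differences was not tested. Groups of 3 mice were not tested for outlying values.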

How the results depend on the processing

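Of 22 called member results, 21 kept their direction in each alternative that gave them a value, the exception being Ern1 in neutrophil-like cells (Veh against NTB). Of the 22, 4 passed the threshold in each alternative that gave them a value. With the limits read as UMIs, Herpud1 in GMPs (BRQ against Veh) was too low to be tested, and no value was computed for the other 3, which are Xbp1 and Atf4 (Veh against NTB) in GMP-like cells below the limit and the Ddit3 difference between GMPs and neutrophil-like cells. Values below are log2 fold changes or numbers of members called, and the causes of the changes were not tested. Single clusters 2, 4, 1, 3 and 8 were added after seeing the data. Thin sums limit the tests: Ddit3, Ppp1r15a and Eif2ak3 rested on 1 to 28 UMIs in NTB-GMPs, and with the limits read as UMIs 8 to 88 GMPs a mouse were left.

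In GMPs, the members called for Veh against NTB (2) numbered 0 with the limits read as UMIs, 4 in all cells of the GMP-like clusters, 1 in cluster 0 and 0 in cluster 4, and 3 with the pool as a replicate block, with all genes of at least 1 count, without Scrublet-marked cells, with tag ratios and with the 2 compared groups alone. The 4 called for BRQ against Veh numbered 0 with the limits read as UMIs and 2 in cluster 2. For BRQ against NTB 1 was called at an Ms4a3 limit of 2.5 and 0 in all others.

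Signs turned in GMPs for results short of the threshold. For Veh against NTB these were Eif2ak3 (-0.091 with tag ratios, -0.031 in the GMP-like clusters) and Atf6 (-0.052 in cluster 0, -0.112 in cluster 4). For BRQ against Veh they were Ppp1r15a (0.043 with the replicate block, 0.008 with DESeq2) Edem1 (0.049 in cluster 4) and Eif2ak3 (0.027 in cluster 2). For BRQ against NTB they were Xbp1 (0.022 with all genes, 0.112 in the GMP-like clusters, 0.066 at the limit of 2.5, 0.118 in cluster 4), Atf4 (0.025 with all genes, 0.119 with tag ratios, 0.125 in the GMP-like clusters, 0.109 at 2.5), Ddit3 (0.02 without Scrublet-marked cells, 0.157 with tag ratios, 0.194 in the GMP-like clusters, 0.035 at 2.5) and Edem1 (-0.056 at 2.5).

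In neutrophil-like cells, BRQ against NTB had 2 members called with the replicate block, with all genes or without Scrublet-marked cells, and 0 with tag ratios, in cluster 1, in cluster 3 and in cluster 8. Veh against NTB had 0 in clusters 1 and 8, and no count is given for cluster 3, with 1 Veh mouse. Ddit3 and Ern1 were too low to be tested in clusters 3 and 8, and Ppp1r15a in all 3 clusters. These members could not be called there, so the 0 is no result about them. In cluster 1 the signs turned for Ern1 (-0.428) and Atf4 (0.643) in Veh against NTB, Herpud1 (0.196) and Atf4 (0.064) in BRQ against Veh, and Ern1 (-0.733), Xbp1 (-0.74), Edem1 (-0.681) and Atf4 (0.707) in BRQ against NTB. In cluster 8 they turned for Xbp1 (0.472) and Eif2ak3 (-1.854) in Veh against NTB, Xbp1 (-0.072) and Eif2ak3 (1.76) in BRQ against Veh, and Herpud1 (-0.373) and Eif2ak3 (-0.094) in BRQ against NTB. In cluster 3, where the Veh group was 1 mouse, they turned for Xbp1 (0.447), Edem1 (0.117) and Herpud1 (-0.431) in Veh against NTB, Xbp1 (-0.27) and Atf4 (0.074) in BRQ against Veh, and Atf6 (-0.068) and Herpud1 (-0.45) in BRQ against NTB. Atf4 in BRQ against Veh was 0.035 with tag ratios and 0.012 with limits as UMIs. In BRQ against NTB, Xbp1 was -0.001 with all genes and -0.045 with limits as UMIs, and Edem1 -0.001 and -0.079.

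In the other classes, BRQ against Veh had 1 member called with tag ratios instead of 6, and BRQ against NTB 0 with tag ratios or without Scrublet-marked cells instead of 1. The difference between GMPs and neutrophil-like cells for BRQ against Veh had 1 called without Scrublet-marked cells instead of 0.

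Leaving out 1 mouse at a time, the members called ranged from 1 to 3 in GMPs (Veh against NTB; 1 without the NTB mouse of pool 2), from 1 to 4, 0 to 2 and 0 to 2 in neutrophil-like cells (Veh against NTB, BRQ against Veh, BRQ against NTB), from 1 to 6 and 0 to 1 in the other classes (BRQ against Veh, BRQ against NTB), and from 2 to 5 and 0 to 4 for the difference between GMPs and neutrophil-like cells (Veh against NTB, BRQ against Veh). For BRQ against Veh, the value of 2 in neutrophil-like cells and that of 4 for the difference came without the BRQ mouse of pool 3. Signs turned for uncalled results in GMPs: Atf6 (-0.052 to 0.293) and Eif2ak3 (-0.024 to 0.412) in Veh against NTB, Ppp1r15a (-0.154 to 0.238) in BRQ against Veh, and Xbp1 (-0.121 to 0.102), Edem1 (-0.02 to 0.038), Eif2ak3 (-0.215 to 0.229), Atf4 (-0.113 to 0.04) and Ddit3 (-0.243 to 0.452) in BRQ against NTB. In neutrophil-like cells they turned for Atf4 (-0.169 to 0.004) and Ppp1r15a (-0.978 to 0.624) in BRQ against Veh, and for Ern1 (-0.03 to 0.594), Xbp1 (-0.102 to 0.102), Edem1 (-0.098 to 0.076), Atf6 (-0.042 to 0.438) and Herpud1 (-0.103 to 0.285) in BRQ against NTB.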

Other observations

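In neutrophil-like cells, 3 of 12 tested genes of the PERK-ATF4 list, 2 of 4 of the CHOP-linked list and 1 of 16 of the IRE1-XBP1 list were higher in BRQ than in NTB mice by edgeR, and 0 of 12 of the ATF6 list and 0 of 9 of the sensor relatives were called (1 of each under an unadjusted p of 0.05), where 10.9% of 7809 genes were called higher and 14.2% in either direction. The dissociation-linked genes moved with this comparison too, 8 of 10 higher with a median log2 fold change of 1.93, as did the share of the class in cluster 1 (6.4% to 10.47% in NTB and 51.63% to 80.81% in BRQ mice), and their part in it was not tested.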
